A study of Mus musculus with 21 samples.

Results

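The interferon-induced GTPases described here were Gbp2 and Gbp3, which are guanylate-binding proteins, and Irgm1, Irgm2, Igtp, Iigp1 and Ifi47, which are immunity-related GTPases. They were chosen by gene symbol: every probe set whose platform annotation named 1 of these 7 genes was taken. This gave 9 probe sets for 7 of the 12393 genes measured, 2 each for Gbp2 and Iigp1 and 1 for each of the others. All 7 genes were measured. The 7 were chosen with earlier results of these data known, so counts among them are a description and not an independent test.

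Female mice of the BALB/c strain, 8 weeks old, gave RNA from the entire left lung after each had received 1 intratracheal aspiration of 50 µl. MACA, a crude antigen of the fungus Metarhizium anisopliae, and bovine serum albumin (BSA) were each given at 20 µg in Hank's balanced salt solution (HBSS), and the vehicle mice received HBSS alone. Biotin-labelled cRNA was hybridised to 21 arrays in 6 groups. Lungs taken 12 h after exposure gave 3 MACA, 4 BSA and 4 HBSS arrays, and those taken after 3 h gave 4 MACA, 3 BSA and 3 HBSS arrays, which the labels call biological replicates. The comparisons set the fungal antigen against the foreign protein and against the vehicle, and each later time against the earlier one. No untreated lung is among the groups, so all mice had received fluid into the airways.

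Guanylate-binding proteins and immunity-related GTPases are among the proteins that interferon-gamma induces most strongly in mouse cells, and type I interferons induce several of them too. Both families bind and hydrolyse GTP, gather on the membranes around intracellular pathogens and help to disrupt them. Induction runs from the interferon receptor through Janus kinases to STAT proteins and interferon regulatory factors, which bind gamma-activated sites and interferon-stimulated response elements near the start of the gene. Of the immunity-related GTPases, Iigp1 and Ifi47 belong to the effector subfamily that loads onto pathogen vacuoles, and Irgm1, Irgm2 and Igtp to the regulatory subfamily that sits on the cell's own membranes and keeps the effectors inactive there.

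The bases just before the start of 5 of the genes are shown because they hold the letters through which interferon signalling is known to act. The RefSeq promoter table (GRCm38.p6) held windows from 250 bases before to 50 bases after the annotated start for 6 of the 7 genes: Gbp2, Gbp3, Irgm1, Irgm2, Igtp and Ifi47, with 2 windows for Gbp3. The interferon-stimulated response element core was searched as GAAANNGAAA, which reads TTTCNNTTTC on the other strand, and the gamma-activated site as TTCNNNGAA, which reads the same on both strands. Each line gives the 120 bases before the start, 5′ to 3′ on the gene's strand, with matches in capitals: the response element core in all 5, preceded by the gamma-activated site in Igtp and Irgm2. The stretches lie at chr3:142620543-142620662 (plus strand) for Gbp2, chr3:142559924-142560043 (plus strand) for Gbp3, chr11:48871421-48871540 (minus strand) for Irgm1, chr11:58214857-58214976 (plus strand) for Irgm2 and chr11:58199436-58199555 (plus strand) for Igtp. For Gbp3 the start is that of the first of its 2 windows. It lies downstream of 142560016, where the gene record begins, so the printed Gbp3 stretch runs past that base.
Gbp2: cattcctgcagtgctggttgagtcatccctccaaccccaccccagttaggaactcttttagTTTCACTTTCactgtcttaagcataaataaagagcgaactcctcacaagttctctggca
Gbp3: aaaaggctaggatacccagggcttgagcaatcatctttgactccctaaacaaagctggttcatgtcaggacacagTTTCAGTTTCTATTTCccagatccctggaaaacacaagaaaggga
Irgm1: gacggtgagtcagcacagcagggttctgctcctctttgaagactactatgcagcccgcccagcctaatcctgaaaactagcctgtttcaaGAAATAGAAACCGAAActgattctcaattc
Irgm2: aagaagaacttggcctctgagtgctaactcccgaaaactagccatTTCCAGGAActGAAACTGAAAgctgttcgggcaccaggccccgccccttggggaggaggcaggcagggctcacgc
Igtp: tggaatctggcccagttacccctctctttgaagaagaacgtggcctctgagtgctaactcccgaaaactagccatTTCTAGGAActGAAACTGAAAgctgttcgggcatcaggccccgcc

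The core lay close to the start in each of these 5 windows. In Gbp2 it spanned positions -59 to -50, where -1 is the last base before the start. In Gbp3 and in Irgm1 a pair of matches overlapped, at -45 to -36 and -39 to -30 in Gbp3 and at -30 to -21 and -24 to -15 in Irgm1. Igtp had the core at -34 to -25 and the gamma-activated site at -45 to -37, and Irgm2 had them at -64 to -55 and -75 to -67. The windows of these neighbouring genes are related in sequence: shifted by 30 bases, 184 of 270 aligned bases were identical (68.1%), with an identical run of 61 bases, so their matches are not separate observations. Of 32851 windows of the same length in the table, 3.44% held the core, 8.3% the gamma-activated site and 0.454% both. Neither set of letters was in the Ifi47 window or in the second Gbp3 window. A match describes the letters and does not show that a factor bound there in these lungs.

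**Figure D1:**
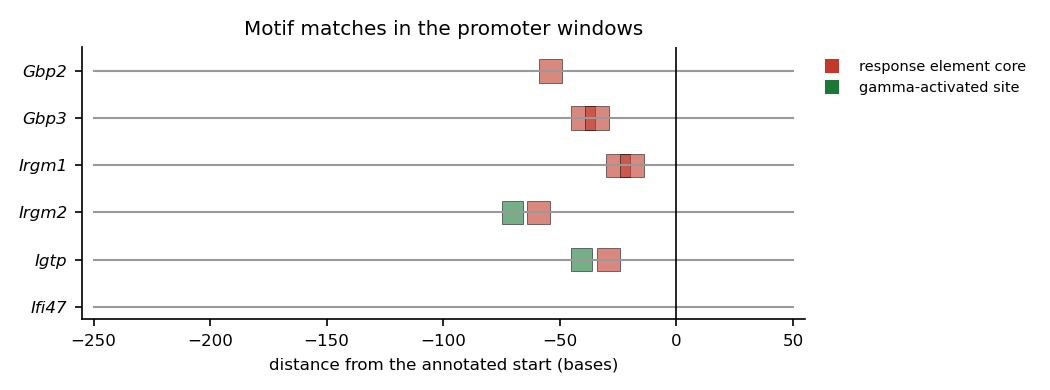
Position of the response element core (red) and of the gamma-activated site (green) in the promoter windows of 6 genes, in bases from the annotated start (vertical line at 0). All matches lie between -75 and -15, overlapping red boxes in Gbp3 and Irgm1 are overlapping matches, and Ifi47 has none.

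Intensities were brought to one distribution over the arrays and taken as log2(intensity + 16), and a gene passed at a limma adjusted p under 0.05 over all 12393 genes. The deposited intensities had array medians of 93.5 to 288, and with 3 or 4 arrays a group the precision is limited by their number. These medians were 192.4 to 287.8 on HBSS 12 h arrays and 124 to 157.6 on MACA 12 h arrays. The comparison of these 2 groups therefore depends on the scaling. One technical difference touches the groups. The ratio of 3′ to 5′ probe sets of a spiked hybridization control was 1.62 to 1.91 on 13 arrays (the high set) and 0.939 to 1.22 on the other 8 (the low set), which comprised all 4 HBSS 12 h arrays and replicates 3 and 4 of both BSA 12 h and MACA 3 h. All MACA 12 h arrays were in the high set, so set and agent cannot be told apart within the MACA and HBSS arrays of 12 h. The labelled tissue was checked by its markers: all 7 lung markers, among them Sftpc and Scgb1a1, were above the noise level (intensity 41.1) on every array.

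All 7 GTPase transcripts were higher in MACA lungs than in HBSS lungs at both times. At 12 h 7 of 7 passed the test upwards, against 10.2% of all genes tested (20.2% passed in either direction), with log2 folds of 0.68 to 1.19 and a median of 0.85. At 3 h 7 of 7 also passed upwards, against 4.84% of all genes (8.12% in either direction), with log2 folds of 0.65 to 1.40 and a median of 1.00. The median log2 fold of all genes tested was -0.001 at 12 h and -0.02 at 3 h. Because the 7 were chosen with earlier results known, their counts beside these shares are a description. For each gene, at each time, every MACA array lay above every HBSS array; 15% of all genes did so at 12 h and 10.1% at 3 h. Without scaling of the arrays the 7 folds stayed positive at both times, but 0 passed at 12 h and 2 at 3 h, while the median of all genes shifted to -0.57 at 12 h. With only the arrays of the 2 groups compared in the fit, 7 passed at 12 h and 3 at 3 h. With the technical set as a term 5 of 7 passed at 12 h, with log2 folds of 0.54 to 1.38, and all 7 at 3 h. That term is estimated only from BSA 12 h and MACA 3 h, the groups that hold both sets. Its 12 h values therefore do not separate set from agent in the MACA and HBSS arrays themselves. Within the high set, which holds 2 MACA and 3 HBSS arrays of 3 h, the 7 folds at 3 h were 0.88 to 1.42 and 6 passed, all but Igtp (0.90, adjusted p = 0.0699). In whole lung RNA, more RNA per cell and more cells that carry the transcript cannot be told apart.

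**Figure D2:**
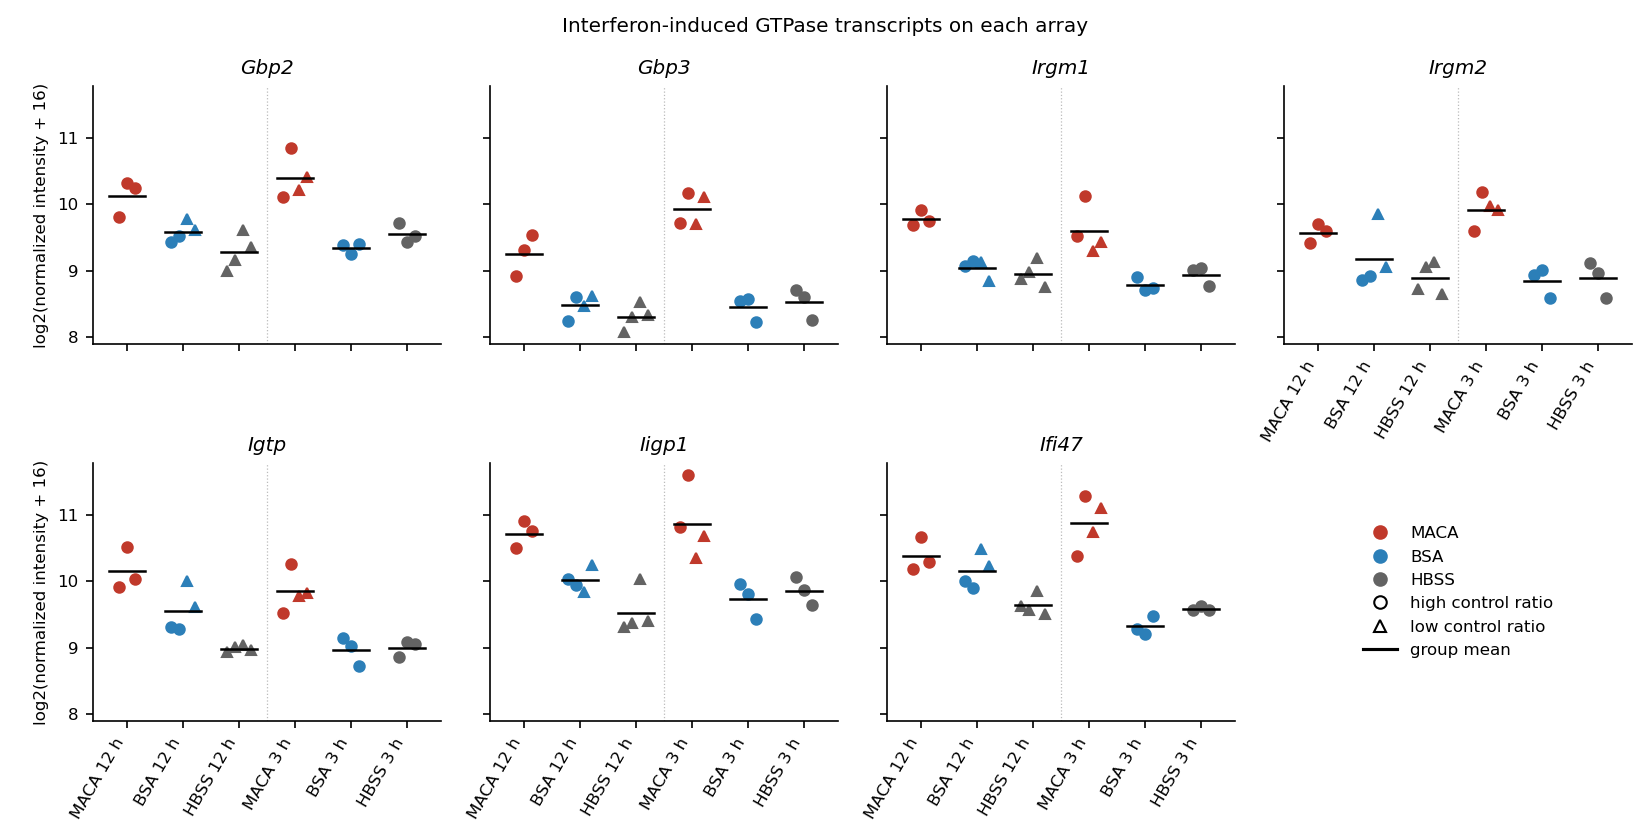
Each point is 1 array and each panel 1 gene (brightest probe set), with log2(normalized intensity + 16) on the vertical axis, the 6 groups along the horizontal axis and the group mean as a line. Circles are arrays with the high and triangles with the low hybridization control ratio. In every panel the MACA arrays of a time sit above the HBSS arrays of that time, and for Ifi47 the BSA 12 h arrays reach into the MACA 12 h range.

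Gbp2, a guanylate-binding protein recruited to pathogen vacuoles and to bacteria in the cytosol, had normalized intensities at 12 h of 883, 1264 and 1196 in MACA lungs, 672, 720.1, 858 and 766 in BSA lungs, and 493, 553, 767 and 639 in HBSS lungs. At 3 h its values were 1081, 1827, 1170 and 1340 in MACA lungs, 652, 594 and 657 in BSA lungs, and 824, 676 and 716 in HBSS lungs. The MACA arrays stood above all others of their time, although the lowest of them at 12 h (883) exceeded the highest BSA array (858) only narrowly. The log2 fold of MACA over HBSS was 0.85 ± 0.17 at 12 h (SE, adjusted p = 0.00283) and 0.84 ± 0.17 at 3 h (adjusted p = 0.0067). Over BSA it was 0.54 ± 0.17 at 12 h, which did not pass (adjusted p = 0.0567), and 1.05 ± 0.17 at 3 h (adjusted p = 0.00232). These values come from a probe set (1435906_x_at) of the kind that may also match related transcripts. The other Gbp2 probe set (1418240_at) followed it with r = 0.971 over the 21 arrays and passed in MACA over BSA at 12 h as well (log2 fold 0.63 ± 0.14, adjusted p = 0.013 over all probe sets).

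Gbp3, a guanylate-binding protein encoded near Gbp2 on chromosome 3, had intensities at 12 h of 468, 618 and 725 in MACA lungs, 286, 375, 336 and 378 in BSA lungs, and 253, 300.0, 351 and 307 in HBSS lungs. At 3 h they were 823, 1136, 814 and 1084 in MACA lungs, 355, 366 and 283 in BSA lungs, and 403, 372 and 289.8 in HBSS lungs. No array of another agent came within the MACA range at either time, and every MACA 12 h array lay below every MACA 3 h array. MACA exceeded HBSS by a log2 fold of 0.95 ± 0.17 at 12 h (adjusted p = 0.00109) and 1.40 ± 0.17 at 3 h (adjusted p = 9.19e-05). It exceeded BSA by 0.77 ± 0.17 at 12 h (adjusted p = 0.00879) and 1.47 ± 0.17 at 3 h (adjusted p = 9.7e-05). Gbp3 was the 1 GTPase of the 7 that differed between the times within MACA: the log2 fold of 12 h over 3 h was -0.67 ± 0.17 (adjusted p = 0.017).

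Irgm1, a regulatory GTPase linked to autophagy and to control of mycobacteria, had intensities at 12 h of 807, 949.9 and 842 in MACA lungs, 521, 550.1, 542 and 441 in BSA lungs, and 453, 487, 568 and 414 in HBSS lungs. At 3 h they were 718, 1102, 612 and 674 in MACA lungs, 463, 401 and 411 in BSA lungs, and 499, 512 and 419.7 in HBSS lungs. MACA arrays lay above all others at both times, and its highest group mean was that of MACA at 12 h, where the arrays lay closer together than at 3 h. MACA exceeded HBSS by a log2 fold of 0.84 ± 0.16 at 12 h (adjusted p = 0.00166) and 0.65 ± 0.16 at 3 h (adjusted p = 0.0176). It exceeded BSA by 0.74 ± 0.16 at 12 h (adjusted p = 0.008) and 0.81 ± 0.16 at 3 h (adjusted p = 0.00701). The 12 h difference from HBSS was 0.54 and did not pass (adjusted p = 0.0649) in the fit that held the technical set.

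Irgm2, a regulatory GTPase found on the Golgi, had intensities at 12 h of 663, 814 and 757 in MACA lungs, 448, 467, 907 and 518 in BSA lungs, and 404, 517, 542 and 387 in HBSS lungs. At 3 h they were 756, 1150, 985 and 948 in MACA lungs, 471, 499 and 368 in BSA lungs, and 536, 484 and 371 in HBSS lungs. BSA 12 h replicate 3 stood apart from the other BSA arrays and above every MACA 12 h array, so these 2 groups overlapped. The log2 fold of MACA over HBSS was 0.68 ± 0.22 at 12 h (adjusted p = 0.0341) and 1.03 ± 0.22 at 3 h (adjusted p = 0.00754). The 12 h difference passed in 17 of 21 fits that each left out 1 array, and its adjusted p was 0.129 without MACA 12 h replicate 2. Over BSA the log2 fold was 0.40 ± 0.22 at 12 h (adjusted p = 0.274, 95% interval -0.06 to 0.85) and 1.08 ± 0.22 at 3 h (adjusted p = 0.00835). Without BSA 12 h replicate 3 the 12 h difference from BSA was 0.62 and passed (adjusted p = 0.0432).

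Igtp, a regulatory GTPase of the endoplasmic reticulum also known as Irgm3, had intensities at 12 h of 943, 1446 and 1028 in MACA lungs, 616, 605, 1014 and 763 in BSA lungs, and 472, 497, 509 and 483 in HBSS lungs. At 3 h they were 721, 1210, 861 and 886 in MACA lungs, 551, 507 and 407 in BSA lungs, and 448, 526 and 514 in HBSS lungs. The HBSS 12 h arrays were close together and below every BSA 12 h array, and BSA 12 h replicate 3 reached into the MACA 12 h range. MACA exceeded HBSS by a log2 fold of 1.17 ± 0.19 at 12 h (adjusted p = 0.000555) and 0.85 ± 0.19 at 3 h (adjusted p = 0.0107). Over BSA, MACA had a log2 fold of 0.60 ± 0.19 at 12 h, short of the threshold (adjusted p = 0.0533), and 0.88 ± 0.19 at 3 h (adjusted p = 0.0125).

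Iigp1, an effector GTPase that coats the vacuoles of Toxoplasma and Chlamydia in mouse cells, had intensities at 12 h of 1422, 1894 and 1709 in MACA lungs, 1035, 966, 901 and 1193 in BSA lungs, and 617, 642, 1035 and 658 in HBSS lungs. At 3 h they were 1777, 3087, 1282 and 1619 in MACA lungs, 978, 882 and 671 in BSA lungs, and 1048, 914 and 782 in HBSS lungs. MACA 3 h replicate 2 held the highest value of the gene and HBSS 12 h replicate 3 stood above its group, but no MACA array overlapped with a BSA or HBSS array of its time. MACA exceeded HBSS by a log2 fold of 1.19 ± 0.24 at 12 h (adjusted p = 0.00283) and 1.00 ± 0.24 at 3 h (adjusted p = 0.0177). In the fit that held the technical set the 12 h value was 0.87 and did not pass (adjusted p = 0.0756). Over BSA the log2 fold was 0.70 ± 0.24 at 12 h, short of the threshold (adjusted p = 0.0784), and 1.13 ± 0.24 at 3 h (adjusted p = 0.0128). The second Iigp1 probe set (1419042_at) was dimmer and correlated with the first at r = 0.899 over 21 arrays. At 12 h it read 803, 873 and 777 in MACA lungs, 402, 318, 348 and 291 in BSA lungs, and 301, 294, 282 and 238 in HBSS lungs, and by this probe set MACA passed over BSA (log2 fold 1.24 ± 0.25, adjusted p = 0.00738 over all probe sets). The probe sets of Iigp1 therefore disagreed on the 12 h call against BSA, as did those of Gbp2.

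Ifi47, an effector GTPase also called Irgd, had intensities at 12 h of 1147, 1607 and 1231 in MACA lungs, 1004, 938, 1415 and 1176 in BSA lungs, and 775, 743, 903 and 708 in HBSS lungs. At 3 h they were 1314, 2459, 1687 and 2184 in MACA lungs, 607, 573 and 696 in BSA lungs, and 743, 769.6 and 739.5 in HBSS lungs. At 3 h the MACA arrays stood far above both other groups and the BSA arrays lay below the HBSS arrays. At 12 h the BSA arrays lay above all HBSS arrays and overlapped with the MACA arrays. MACA exceeded HBSS by a log2 fold of 0.74 ± 0.18 at 12 h (adjusted p = 0.00928; 0.0662 without MACA 12 h replicate 2) and 1.29 ± 0.18 at 3 h (adjusted p = 0.000406). Over BSA the log2 fold was 0.23 ± 0.18 at 12 h (adjusted p = 0.483, 95% interval -0.16 to 0.62) and 1.55 ± 0.18 at 3 h (adjusted p = 0.000136).

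The comparison with BSA asked whether a foreign protein without the fungal antigen gave the same levels. At 3 h all 7 GTPases were higher after MACA than after BSA and passed, against 3.5% of all genes upwards (5.95% in either direction), with a median log2 fold of 1.08. Without scaling the 7 folds at 3 h stayed positive and 1 passed, and with only the arrays of these groups in the fit 2 passed. Within the high set 5 passed at 3 h, with folds of 0.93 or more for the 7, and Irgm2 (1.05, adjusted p = 0.0503) and Igtp (0.93, adjusted p = 0.0949) did not. All 7 also had every MACA array above every BSA array, as did 8.3% of all genes. At 12 h 2 of 7 passed, Gbp3 and Irgm1, against 4.07% of all genes upwards (9.65% in either direction). The other 5 had positive log2 folds of 0.23 to 0.70 that did not pass, and the median over the 7 was 0.60. Within the high set, with 3 MACA and 2 BSA arrays, the folds were 0.43 to 0.86 and 0 passed. Groups did not overlap for 4 of the 7 (Gbp2, Gbp3, Irgm1 and Iigp1), as for 7.76% of all genes upwards. With the probe sets of each gene averaged, or with dim genes left out, 4 of 7 passed at 12 h, and without MACA 12 h replicate 2 none did.

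Between BSA and HBSS lungs 0 of the 7 transcripts passed the limma test at either time. At 12 h 0 of 7 passed, against 1.35% of all genes, although 3 had an unadjusted limma p under 0.05: Igtp (log2 fold 0.57 ± 0.17, adjusted p = 0.112), Ifi47 (0.51 ± 0.17, adjusted p = 0.135) and Iigp1 (0.49 ± 0.22, adjusted p = 0.278). All 7 folds were positive at 12 h, from 0.10 to 0.57, and without scaling of the arrays all 7 were negative. Igtp and Ifi47 had every BSA 12 h array above every HBSS 12 h array, as did 4.37% of all genes, and both passed once the technical set was a term (log2 folds 0.67 and 0.64, adjusted p = 0.0333 each). Within the low set, the 2 BSA and 4 HBSS arrays of 12 h gave Igtp a log2 fold of 0.82 (adjusted p = 0.0355) and Ifi47 one of 0.72 (adjusted p = 0.0695). At 3 h 0 of 7 passed, against 0.178% of all genes, and 0 had an unadjusted p under 0.05. The 3 h folds ran from -0.26 (Ifi47, 95% interval -0.68 to 0.15) to -0.03 (Igtp, 95% interval -0.45 to 0.39), and 5 of them turned positive without scaling. Gbp2 and Ifi47 had every BSA 3 h array below every HBSS 3 h array, as did 9.17% of all genes.

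**Figure D3:**
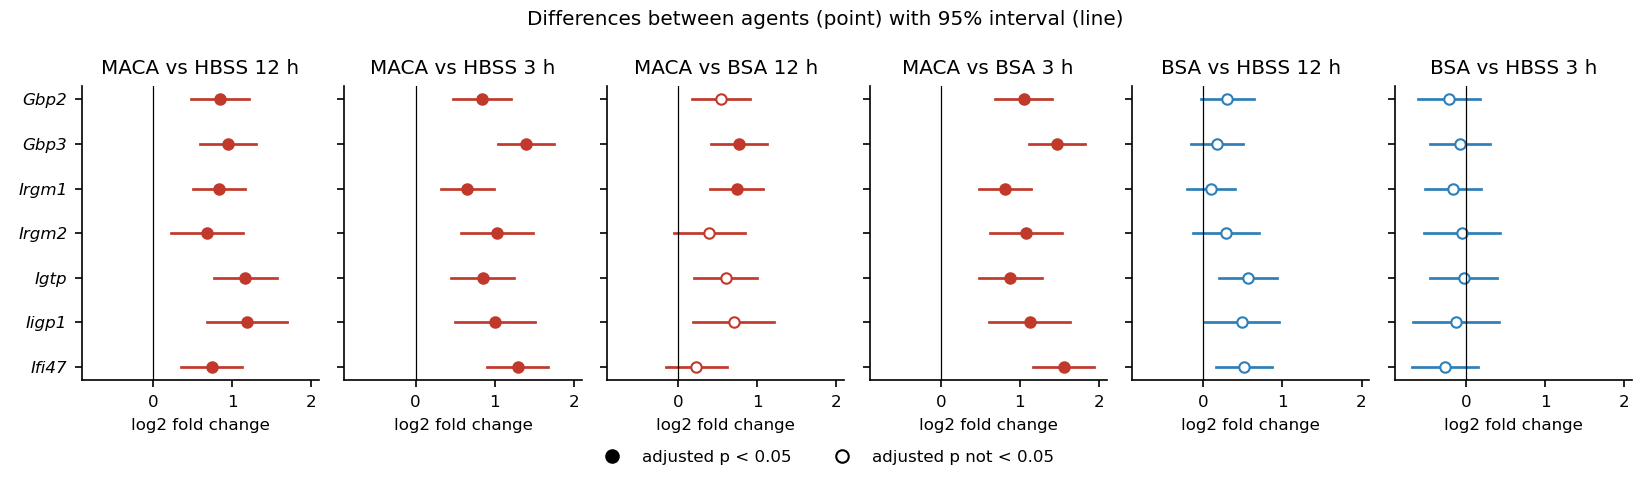
Log2 fold of the first agent over the second for the 7 genes (points) with the 95% interval of the fit (lines), 1 panel per comparison. Filled points passed at an adjusted p under 0.05: all 7 in MACA over HBSS at both times and in MACA over BSA at 3 h, 2 in MACA over BSA at 12 h, and none in BSA over HBSS, whose 12 h points lie right of 0 here and left of it without scaling.

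The time comparisons asked whether the difference lasted. Within MACA lungs 1 of 7 GTPases differed between 12 h and 3 h, Gbp3, which was lower at 12 h as given above, against 5.15% of all genes downwards (10.7% in either direction), and whose groups did not overlap, as for 9.98% of all genes downwards. Within the high set its log2 fold was -0.69 (adjusted p = 0.107). Ifi47 had a log2 fold of -0.49 ± 0.18 (adjusted p = 0.0981), Igtp one of 0.30 ± 0.19 (adjusted p = 0.353) and Irgm1 one of 0.19 ± 0.16 (adjusted p = 0.514). The Gbp3 difference passed in 18 of 21 fits that each left out 1 array and had an adjusted p of 0.0899 without MACA 12 h replicate 1. Within BSA lungs Ifi47 alone passed, higher at 12 h than at 3 h (log2 fold 0.83 ± 0.18, adjusted p = 0.0175), against 3.37% of all genes upwards (5.3% in either direction). For 3 genes, Gbp2, Igtp and Ifi47, every BSA 12 h array lay above every BSA 3 h array, as for 10.3% of all genes. The Ifi47 difference was 0.70 with a term for the technical set (adjusted p = 0.0697) and 0.63 within the high set (adjusted p = 0.23), and it had an adjusted p of 0.0889 without BSA 3 h replicate 2. Igtp had a log2 fold of 0.58 ± 0.19 in BSA lungs (adjusted p = 0.0789). Within HBSS lungs 0 of 7 passed, against 7.88% of all genes, and 0 had an unadjusted p under 0.05; without scaling 4 passed upwards, where the median of all genes shifted by 0.72. All HBSS 12 h arrays were of the low technical set and all HBSS 3 h arrays of the high set, so time and set cannot be told apart within HBSS.

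The MACA to HBSS difference itself was not shown to change with time for any of the 7 genes. Of its 12 h minus 3 h terms 0 passed, against 3.91% of all genes, and the estimates ran from -0.55 ± 0.26 for Ifi47 (unadjusted p = 0.05, adjusted p = 0.25) to 0.32 ± 0.27 for Igtp (adjusted p = 0.554). This term includes the HBSS time difference and so cannot be told apart from the technical set in the HBSS arrays, and no set alone holds all 4 groups. For the MACA to BSA difference 1 of 7 passed, Ifi47, against 0.5% of all genes downwards (0.718% in either direction). Its fold over BSA was 0.23 at 12 h and 1.55 at 3 h, a difference of -1.32 ± 0.26 (adjusted p = 0.0363). By the brightest probe sets all 7 of these terms were negative, from -1.32 to -0.07. Those of Gbp3 (-0.70 ± 0.24, adjusted p = 0.152) and Irgm2 (-0.68 ± 0.30, adjusted p = 0.251) had an unadjusted p under 0.05. The sign did not hold throughout. By the second Iigp1 probe set the term was 0.26 ± 0.35 (adjusted p = 0.76 over all probe sets). The Irgm1 term ran from -0.171 to 0.106 when single arrays were left out. The Ifi47 term passed in 12 of 21 fits that each left out 1 array and was -1.07 when the technical set entered the fit (adjusted p = 0.261).

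Over the 6 groups the order of the levels, by the brightest probe set of each gene, placed the MACA groups first for every gene. MACA 3 h had the highest mean for Gbp2, Gbp3, Irgm2, Iigp1 and Ifi47, and MACA 12 h for Irgm1 and Igtp; the 2 groups overlapped for all but Gbp3. BSA 12 h came next for all but Gbp3, for which HBSS 3 h did, and BSA 12 h overlapped with MACA 12 h for Irgm2, Igtp and Ifi47. The last 3 groups lay close together, and most neighbours among them overlapped. HBSS 12 h was lowest for Gbp2, Gbp3 and Iigp1, and BSA 3 h for Irgm1, Irgm2, Igtp and Ifi47. The second probe sets of Gbp2 and Iigp1 also placed the MACA groups first but differed in the rest of the order. For Gbp2, HBSS 3 h came next (mean log2 9.603, against 9.500 in BSA 12 h). For Iigp1, BSA 3 h came next (8.590, against 8.465 in BSA 12 h), and MACA 12 h (9.702) stood above MACA 3 h (9.570).

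The 7 transcripts varied together over the arrays. The 21 pairs of genes correlated at r of 0.718 to 0.931 over the 21 arrays, with a median of 0.849, as a description that includes the group differences. Deviations from the group means still correlated at 0.350 to 0.778, with a median of 0.569, and the arrays share any effect of RNA quality or scaling. With each gene centred on its mean and divided by its SD, the mean of the 7 ran from 0.54 to 1.33 in MACA 12 h arrays, -0.43 to 0.30 in BSA 12 h arrays and -1.07 to -0.30 in HBSS 12 h arrays. It ran from 0.82 to 2.14 in MACA 3 h arrays, -1.07 to -0.65 in BSA 3 h arrays and -0.85 to -0.41 in HBSS 3 h arrays. MACA 3 h replicate 2 was the highest array of all, and MACA 12 h replicate 2 the highest of its group. In BSA 12 h the 2 arrays of the low technical set were the 2 highest, and all HBSS 12 h arrays were of the low set as well.

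**Figure D4:**
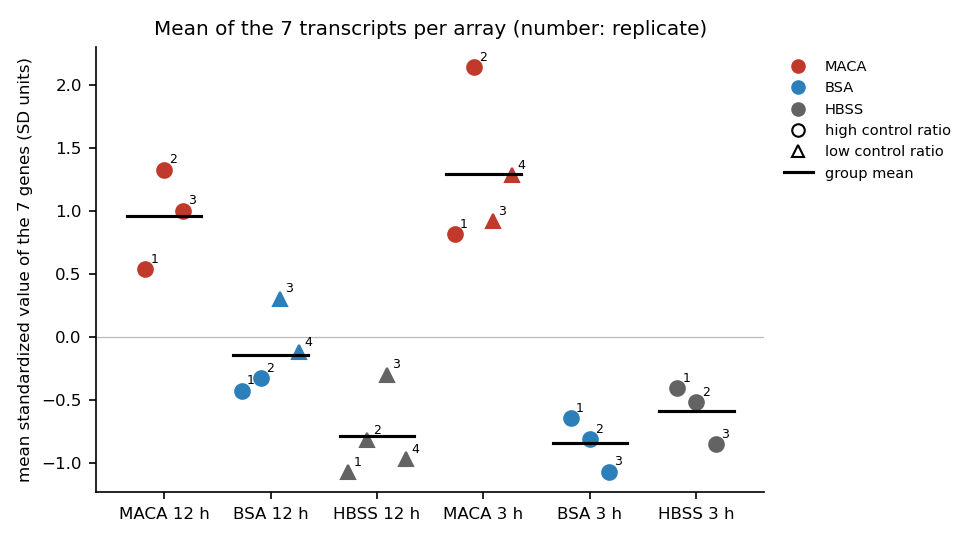
Mean of the 7 genes on each array after each gene was centred on its mean and divided by its SD over the 21 arrays, with the replicate number beside each point, the group mean as a line and triangles for arrays of the low control ratio. MACA arrays lie between 0.54 and 2.14 and all BSA and HBSS arrays at 0.30 or below.

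Other GTPases listed with the 2 families rose in part. A probe set of 1 gene measured 7 of the 21 listed. Of these 7, 4 rose in MACA over HBSS at 12 h and 2 at 3 h, and 0 fell. Without scaling 1 rose at each time. Of all genes tested, 10.2% rose at 12 h and 4.84% at 3 h, here and for the lists below. Gbp2b, Gbp6, Gbp7 and Gbp8 are guanylate-binding proteins, while Mx1, Mx2 and Atl3 are of other GTPase families. No further immunity-related GTPase was measured in this way. Gbp2b, a guanylate-binding protein also known as Gbp1, had intensities of 880 to 1074 in MACA lungs and 579.5 to 785 in HBSS lungs at 12 h, and 1163 to 2232 in MACA lungs and 641 to 933 in HBSS lungs at 3 h. Its log2 fold was 0.58 ± 0.19 at 12 h (adjusted p = 0.0421) and 1.12 ± 0.19 at 3 h (adjusted p = 0.00187). Gbp6, another family member, rose by 0.76 ± 0.20 at 12 h (adjusted p = 0.0113) and 1.54 ± 0.20 at 3 h (adjusted p = 0.000154). Mx1 and Mx2, dynamin-like GTPases, were below the noise level on all HBSS 12 h arrays. They were at least 1.95-fold and 1.49-fold higher in MACA lungs at 12 h (adjusted p = 0.000672 and 0.0167). Gbp7 did not pass, with log2 folds of 0.17 ± 0.17 at 12 h and 0.05 ± 0.17 at 3 h, and Gbp8 had 0.31 ± 0.18 and -0.11 ± 0.18. Transcripts of these families resemble each other, so probe sets of 1 gene may read a relative in part.

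Transcripts of the interferons themselves were at or near the noise. Of 14 measured interferon genes and cytokines that raise interferon-gamma, 0 rose at either time and 1 fell at 12 h, Il15 (log2 fold -0.47 ± 0.10, adjusted p = 0.00481), a cytokine that maintains natural killer cells; 2 fell at 12 h without scaling and 0 with a term for the technical set. Ifng, which encodes interferon-gamma, read 0 to 10.4 in MACA lungs and 0 to 5.70 in HBSS lungs at 12 h, and 0 to 12.3 in MACA lungs and 0 to 1.99 in HBSS lungs at 3 h. Ifnb1, which encodes interferon-beta, reached at most 10.4 in MACA lungs and 1.52 in HBSS lungs at 12 h, and 8.29 in MACA lungs and 11.1 in HBSS lungs at 3 h. All these values lie below the noise intensity of 41.1, so no level of either interferon was detectable here and no fold is given. Ifna1, Ifna4, Ifna5, Ifna9, Ifna11 and Ifnab were below it on every array as well. For genes below the noise in both groups, the lack of a rise is not informative.

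Signal transducers downstream of the interferon receptors rose in part. Of 17 measured receptors, kinases and transcription factors, 10 rose in MACA over HBSS at 12 h and 6 at 3 h, and 0 fell; without scaling 2 rose and 3 fell at 12 h and 2 rose at 3 h. Irf1, a transcription factor that drives many interferon-gamma targets, had intensities of 1614 to 2062 in MACA lungs and 1026 to 1214 in HBSS lungs at 12 h, and 2638 to 4056 in MACA lungs and 1364 to 1564 in HBSS lungs at 3 h. Its log2 fold was 0.70 ± 0.13 at 12 h (adjusted p = 0.00176) and 1.22 ± 0.13 at 3 h (adjusted p = 4.73e-05). Irf7, which drives type I interferon genes, rose by 1.24 ± 0.15 at 12 h (adjusted p = 7.74e-05) and 0.70 ± 0.15 at 3 h (adjusted p = 0.00953). Irf5, which acts downstream of Toll-like receptors, rose by 1.19 ± 0.12 at 12 h (adjusted p = 1.76e-05) and 0.91 ± 0.12 at 3 h (adjusted p = 0.000173). Ifngr2, a chain of the interferon-gamma receptor, rose by 0.70 ± 0.20 at 12 h (adjusted p = 0.0191) and 0.80 ± 0.20 at 3 h (adjusted p = 0.0212). Batf2 passed at 12 h with every array of both groups below the noise, so its fold is not given. With a term for the technical set 6 of the 17 rose at 12 h.

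Inhibitors of the pathway passed in part. Of 13 measured, 7 rose at 12 h and 0 fell, and 5 rose and 1 fell at 3 h (Pias2, -0.35 ± 0.10, adjusted p = 0.034); without scaling 0 rose and 4 fell at 12 h, and 3 rose and 0 fell at 3 h. Socs3, a feedback inhibitor of cytokine receptors, rose by a log2 fold of 1.56 ± 0.26 at 12 h (adjusted p = 0.000672) and 1.69 ± 0.26 at 3 h (adjusted p = 0.00075). Socs1, the feedback inhibitor of interferon-gamma signalling, was below the noise on all HBSS 12 h arrays, and MACA lungs were at least 2.01-fold higher at 12 h (adjusted p = 0.004). At 3 h Socs1 was above the noise on all 4 MACA arrays (56.9 to 103.5) and on 1 of 3 HBSS arrays (12.5 to 50.5), and it passed (adjusted p = 0.00316); no fold is given against a group mostly below the noise. Ptpn2, a phosphatase that acts on Janus kinases, rose by 0.78 ± 0.16 at 12 h (adjusted p = 0.00317) and 0.80 ± 0.16 at 3 h (adjusted p = 0.00621). Of 15 ubiquitin-like conjugation and autophagy proteins that place the GTPases on membranes, 1 rose and 1 fell at 12 h (Atg3, 0.36 ± 0.07, and Ulk1, -0.41 ± 0.10), and 2 rose and 1 fell at 3 h (Sqstm1, 0.74 ± 0.21, Becn1, 0.28 ± 0.07, and Atg12, -0.47 ± 0.12). These counts lay beside 10.2% of all genes upwards at 12 h and 4.84% at 3 h. Unscaled, 10 of the 15 conjugation and autophagy genes fell at 12 h.

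**Figure D5:**
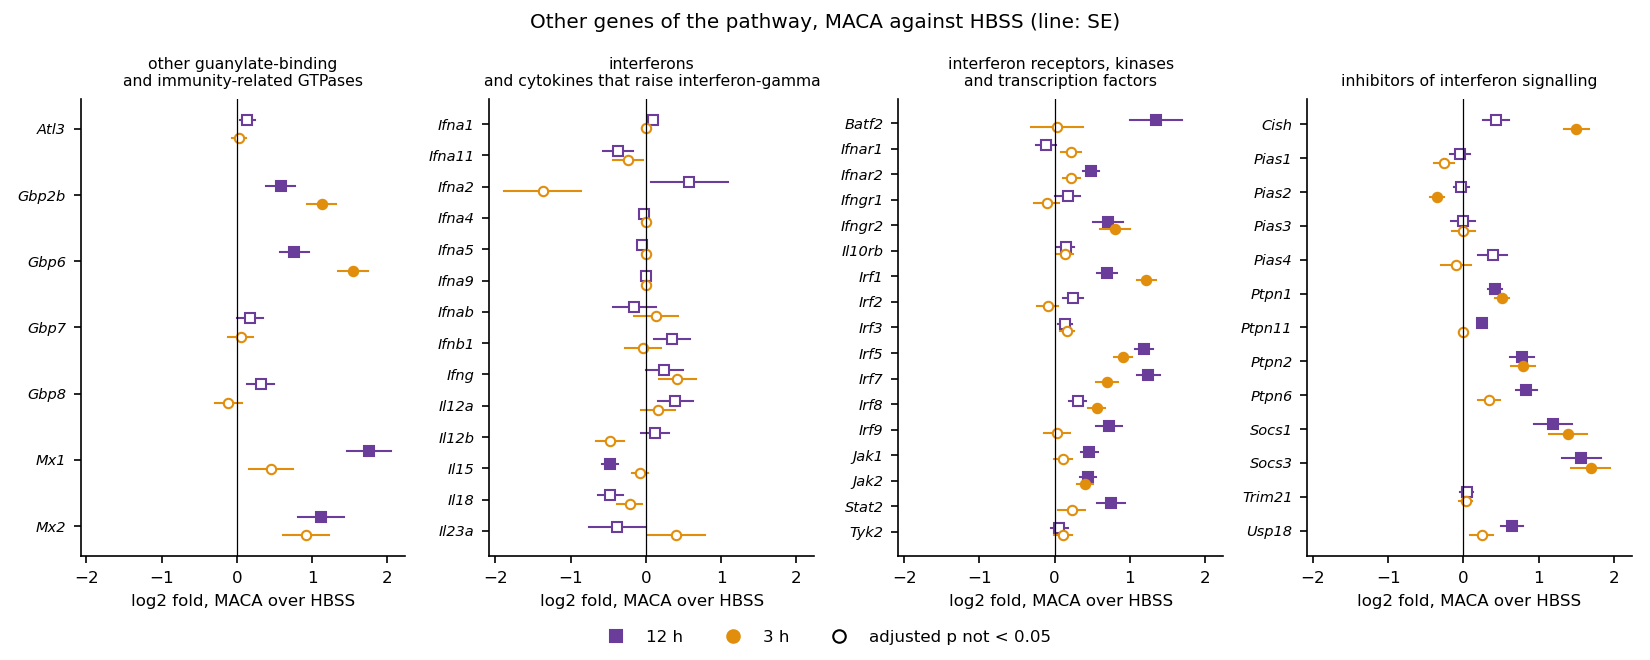
Log2 fold of MACA over HBSS (points) with its SE (lines) for other genes of the pathway, squares for 12 h and circles for 3 h, filled where the adjusted p was under 0.05. Of the interferon genes and cytokines only Il15 passed, while 10 of 17 receptors, kinases and transcription factors passed upwards at 12 h, against 2 upwards and 3 downwards without scaling. Some points come from groups below the noise on every array and carry no fold. Among them are Ifng, Ifnb1, Ifna1, Ifna4, Ifna5, Ifna9, Ifna11 and Ifnab at both times, and Ifna2 and Batf2 at 12 h.

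Other genes known to be induced by interferon-gamma rose in part. This list shares Irf1 and Socs1 with the lists above and Fcgr1 with the macrophage and monocyte markers below, so the counts are not separate. Of 21 measured, 17 rose in MACA over HBSS at 12 h and 10 at 3 h, and 0 fell; without scaling 4 rose at 12 h and 6 at 3 h. Cxcl10, a chemokine for T cells, was below the noise on all HBSS 12 h arrays, and MACA lungs were at least 8.36-fold higher at 12 h (adjusted p = 5.33e-05). At 3 h its log2 fold was 4.15 ± 0.42 (adjusted p = 2.81e-05), with 1 of 3 HBSS arrays below the noise. Gch1, an enzyme of tetrahydrobiopterin synthesis, rose by 1.76 ± 0.33 at 3 h (adjusted p = 0.00339). Casp4, the sensor caspase that acts with guanylate-binding proteins, rose by 0.62 ± 0.17 at 12 h (adjusted p = 0.0144) and 1.42 ± 0.17 at 3 h (adjusted p = 8.18e-05). Against BSA 10 of 21 rose at 12 h (4.07% of all genes) and 11 at 3 h (3.5% of all genes), and 3 at each time without scaling.

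By likeness over the 21 arrays, the 5 genes closest to the mean of the 7 GTPases among 9291 genes compared were Ifit1 (r = 0.939), Parp14 (0.937), Parp9 (0.933), Elovl6 (0.932) and Cxcl10 (0.929). Over the 6 group means the same genes had r of 0.944, 0.982, 0.998, 0.976 and 0.951. These correlations describe arrays that share the group differences. Ifit1 is an interferon-induced RNA-binding protein, and its log2 fold of MACA over HBSS was 1.79 ± 0.23 at 12 h and 1.13 ± 0.23 at 3 h. Parp14, an ADP-ribosyltransferase, had log2 folds of 0.47 ± 0.12 at 12 h and 0.68 ± 0.12 at 3 h. These genes were picked for their likeness to the GTPases, so their folds are a description.

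Some markers of immune cells also differed between the groups in which the GTPases differed, and their part in the GTPase differences was not tested. Of all genes tested, 10.2% rose in MACA over HBSS at 12 h and 4.84% at 3 h. The count of T and natural killer cell markers, 1 of 10 at 12 h, lay near that share. Of 9 measured neutrophil markers, 3 rose in MACA over HBSS at 12 h and 4 at 3 h, with 0 at 12 h once the technical set was a term; without scaling 1 rose at each time. Their summed intensity was 4215 to 7631 in MACA lungs, 2944 to 6822 in BSA lungs and 1756 to 2993 in HBSS lungs at 12 h. At 3 h it was 7390 to 11439 in MACA lungs, 1470 to 4120 in BSA lungs and 1010 to 3363 in HBSS lungs. Elane was below the noise on every array and Mpo on all but 1 BSA 12 h array. Of 10 macrophage and monocyte markers, 5 rose at 12 h and 1 at 3 h (Cd14); without scaling 1 rose and 1 fell at 12 h and 0 passed at 3 h, and with the set as a term 3 rose and 1 fell at 12 h. Their summed intensities were 8571 to 10071 in MACA lungs, 5040 to 8493 in BSA lungs and 5309 to 6390 in HBSS lungs at 12 h. At 3 h those sums were 9749 to 12428 in MACA lungs, 6421 to 7190 in BSA lungs and 5009 to 7812 in HBSS lungs. Cd14, a co-receptor for lipopolysaccharide, made up much of the 3 h difference, with 4594 to 6590 in MACA lungs and 553.5 to 2454 in HBSS lungs, while the median log2 fold of the 10 markers at 3 h was 0.015. Csf1r had a 3 h log2 fold of -0.30 ± 0.17 and Mrc1 one of -0.23 ± 0.21, and neither passed. T and natural killer cells, the main producers of interferon-gamma, had 1 of 10 markers higher at 12 h (Nkg7) and 0 at 3 h (without scaling 0 rose and 1 fell at 12 h; a term for the set left 0), with Cd4 below the noise on every array. The sum of the T and natural killer cell markers was 1668 to 2659 in MACA lungs, 1743 to 2158 in BSA lungs and 861 to 1795 in HBSS lungs at 12 h. At 3 h that sum was 1426 to 2058 in MACA lungs, 596 to 1318 in BSA lungs and 800 to 1506 in HBSS lungs. Of 4 B cell markers, 2 rose at 12 h and 0 at 3 h, and 0 passed without scaling.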

How the data were processed

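RNA of 21 mouse left lungs had been labelled and hybridised to 1-colour arrays, per the labels' protocols. The deposited values were intensities on a linear scale, 9.37% to 11.1% of them below 0 on an array, and array medians differed by up to 3.08 times, so the authors' values had not been brought to one level; the summary software is not given in the sources used here. After 64 control probe sets were left out, 22626 were quantile normalized, values below 0 were set to 0 and log2(intensity + 16) was taken, on which scale folds of dim genes are understated. Probe sets with 1 gene symbol (20380, against 691 with several and 1555 with none) were named from the platform annotation, updated by gene number through RefSeq (GRCm38.p6) for 20351, and the brightest probe set stood for each of 12393 genes.

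limma (3.58.1, R 4.3.3) fitted 6 group means (15 residual degrees of freedom) and tested 11 comparisons: the 3 pairs of agents at each time, the times within each agent, and the change with time of MACA against HBSS and against BSA. Benjamini-Hochberg adjusted p under 0.05 over all genes of a comparison was the threshold. The fit was tested on simulated data. Values below 0 set the noise level: 95% of them were smaller in size than 41.1 (log2 5.84). Where a gene stayed under that level throughout 1 group, a lower bound of its fold is printed, and where it did so in both groups, none.

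The named genes were the 7 members with all probe sets, at most the 4 largest changes past the threshold of each list in MACA over HBSS per time, up to 2 of a list that missed it, any whose direction differed between times or agents, and the 5 genes most like the mean of the members. Members and lists were chosen with earlier results of these data known. Alternatives changed the scaling, the pseudocount (1 and 64), the dim filter, the probe set, the arrays fitted, the variance trend, the technical set, the replicate block and single arrays. Figures used python 3.11.15 and matplotlib 3.10.9.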

Additional observations from a re-analysis of the deposited data

Results flagged for a closer look

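Iigp1 in HBSS lungs at 12 h had 1 array away from the others: replicate 3 had a log2 value of 10.04 (intensity 1035), against intensities of 617 to 658 on the other 3, a gap large enough to stand out by Dixon's criterion. Of 21 groups of 4 arrays tested, 1 was marked in this way, and chance marks about 1 in 20. That array did not stand out for the second Iigp1 probe set, where it read 282 and the others 238 to 301.

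The MACA to BSA difference of Ifi47 changed with time: the log2 fold was 0.23 at 12 h and 1.55 at 3 h, and the difference of -1.32 passed in the test of the difference itself (limma, adjusted p = 0.0363). BSA lungs had 938 to 1415 at 12 h and 573 to 696 at 3 h, and MACA lungs 1147 to 1607 at 12 h and 1314 to 2459 at 3 h. The 2 BSA 12 h arrays with the highest Ifi47 values, replicates 3 and 4, were of the low technical set, as were 2 of the 4 MACA 3 h arrays, and the difference was -1.07 among arrays of the high set alone (adjusted p = 0.301).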

How the results depend on the processing

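Each of the 26 gene differences called kept its sign under every alternative run, with 254 values past the threshold and 51 not under alternatives other than leaving out an array, and 519 past it and 27 not when single arrays were left out. Without scaling, where the median of all genes shifted by -0.57 in MACA over HBSS, -0.45 in BSA over HBSS and -0.10 in MACA over BSA at 12 h and by 0.12 in BSA over HBSS at 3 h, fewer of the 7 GTPases passed in MACA over HBSS (0 at 12 h and 2 at 3 h), in MACA over BSA (0 at 12 h and 1 at 3 h) and in the times within MACA (0) and BSA (0), 4 passed between the times in HBSS, and the changes with time had 1 against HBSS and 0 against BSA. With only the arrays of the groups compared, and so fewer residual degrees of freedom, 3 passed in MACA over HBSS at 3 h, 0 in MACA over BSA at 12 h and 2 at 3 h, and 0 in the times within MACA, within BSA and in the change against BSA. In MACA over BSA at 12 h, 4 passed without dim genes, 4 with probe sets averaged and 0 in the high set alone. The high set alone, with fewer arrays, also gave 0 between the times in MACA and in BSA and 0 for the change against BSA. With the technical set as a term 2 passed in BSA over HBSS at 12 h, 0 between the times in BSA and 0 for the change against BSA, and in the low set alone 1 passed in BSA over HBSS at 12 h. No alternative within a technical set could be run for MACA over HBSS at 12 h, since no set holds both groups. Scaling each array to one median, other pseudocounts and a variance trend left each count within 1.5 times. The cause of these changes was not tested.

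Arrays were not treated as paired by replicate number, and whether the numbers mark a pairing was not tested. Deviations of arrays with the same number correlated at a median of 0.0909 (48 pairs, -0.22 to 0.457). Those of arrays with different numbers correlated at a median of -0.0413 (135 pairs, -0.395 to 0.417). With the replicate number as a block, 0 passed for the change against BSA, and no other count moved by over 1.5 times.

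Leaving out 1 array at a time gave 5 to 7 GTPases past the threshold in MACA over HBSS at 12 h and 4 to 7 at 3 h (4 without HBSS 3 h replicate 3), 0 to 5 in MACA over BSA at 12 h (0 without MACA 12 h replicate 2, 5 without MACA 3 h replicate 2) and 7 in each fit at 3 h, 0 to 2 between the times in MACA (0 without MACA 12 h replicates 1 or 2 or MACA 3 h replicate 4), 0 to 2 in BSA (0 without BSA 12 h replicate 3 or BSA 3 h replicates 1 or 2) and 0 to 1 for the change against BSA. Signs turned only for differences that had not passed. In BSA over HBSS at 12 h the unscaled log2 folds were -0.27 (Gbp2), -0.39 (Gbp3), -0.47 (Irgm1), -0.29 (Irgm2), -0.008 (Igtp), -0.08 (Iigp1) and -0.055 (Ifi47), and Irgm1 had -0.05 with the set as a term. At 3 h unscaled values were 0.093 (Gbp3), 0.015 (Irgm1), 0.12 (Irgm2), 0.152 (Igtp) and 0.054 (Iigp1), Iigp1 had 0.022 with probe sets averaged, and leaving out 1 array at a time gave -0.210 to 0.034 (Gbp3), -0.198 to 0.078 (Irgm2), -0.120 to 0.092 (Igtp) and -0.235 to 0.031 (Iigp1).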
